A study of Homo sapiens with 40 samples.

Results

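The DDX and DHX genes encode RNA helicases and were followed in a catalogue of transcript models from human cells. Members were taken by name: every gene identifier of the catalogue that begins with DDX or DHX and a digit, leaving out identifiers that carry a suffix or join 2 names, such as antisense or divergent genes. The rule found 33 genes with 65 models, of 9460 genes with 19972 models in all. All 33 were listed as protein-coding genes in the RefSeq gene table. The study compared neural progenitor cells (NPC), made from H9 cells by dual-SMAD inhibition, with untreated H9 embryonic stem cells (ESC). H9 is 1 established human cell line. RNA of each was split by the ribosomes it carried: the cytosol as a whole, monosomes, light polyribosomes with 2 to 4 ribosomes, and heavy polyribosomes with at least 5. The design has 40 libraries, 20 of NPC and 20 of ESC: 16 long-read libraries, 2 per cell type and fraction, and 24 short-read libraries, 3 per cell type and fraction.

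The catalogue is labelled as long-read. It gives the position of each exon and coding segment and holds no value per library. No comparison of NPC with ESC, or of fractions, can be made from it, the depth is unknown, and a gene with no model is not shown to be silent. A second model is a second chain of introns, not a repeated observation, and no test is given because the members are a chosen list. The genome build is not named in the sources used here. In RefSeq's windows around gene starts (GRCh38.p14), 1985 of 2036 deposited coding starts (97.5%) read ATG, including 6 of 6 in DDX and DHX genes, so those windows were used for sequence.

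Helicases of the DEAD-box (DDX) and DEAH-box (DHX) families use ATP to open short RNA duplexes or to strip proteins from RNA, and their names spell amino acids of a shared ATPase motif. DEAD-box proteins usually part strands locally, whereas DEAH-box proteins move along RNA. They act at nearly every step in the life of an RNA: intron removal, export through the nuclear pore, ribosome assembly, translation, storage and decay.

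The family was present mostly as long, many-exon mRNAs, and its genes had about as many models as other genes. The median DDX or DHX gene had 14 exons in its model with the most exons (range 2 to 29), and the median over all genes was 7. The longest coding region of a gene had a median of 643 codons in 32 coding DDX and DHX genes, against 335 codons in 8579 coding genes. The last codon of a deposited region is counted. Models per gene averaged 1.97 ± 1.24 in the family (SD over genes, n = 33) and 2.11 ± 1.70 in all genes (n = 9460). At least 2 models were found for 16 of 33 DDX and DHX genes (48.5%, 95% Wilson interval 32.5 to 64.8%), beside 50% of all genes. These intervals cover counting error only. DDX19B and DDX39A had 5 models each, and DDX11 and DDX54 had 4 each. DDX3X, DDX5, DDX6, DDX49, DDX52 and DHX15 had 3, and DDX27, DDX41, DDX50, DDX56, DHX9 and DHX32 had 2. The other 17 genes had 1 model each.

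**Figure D1:**
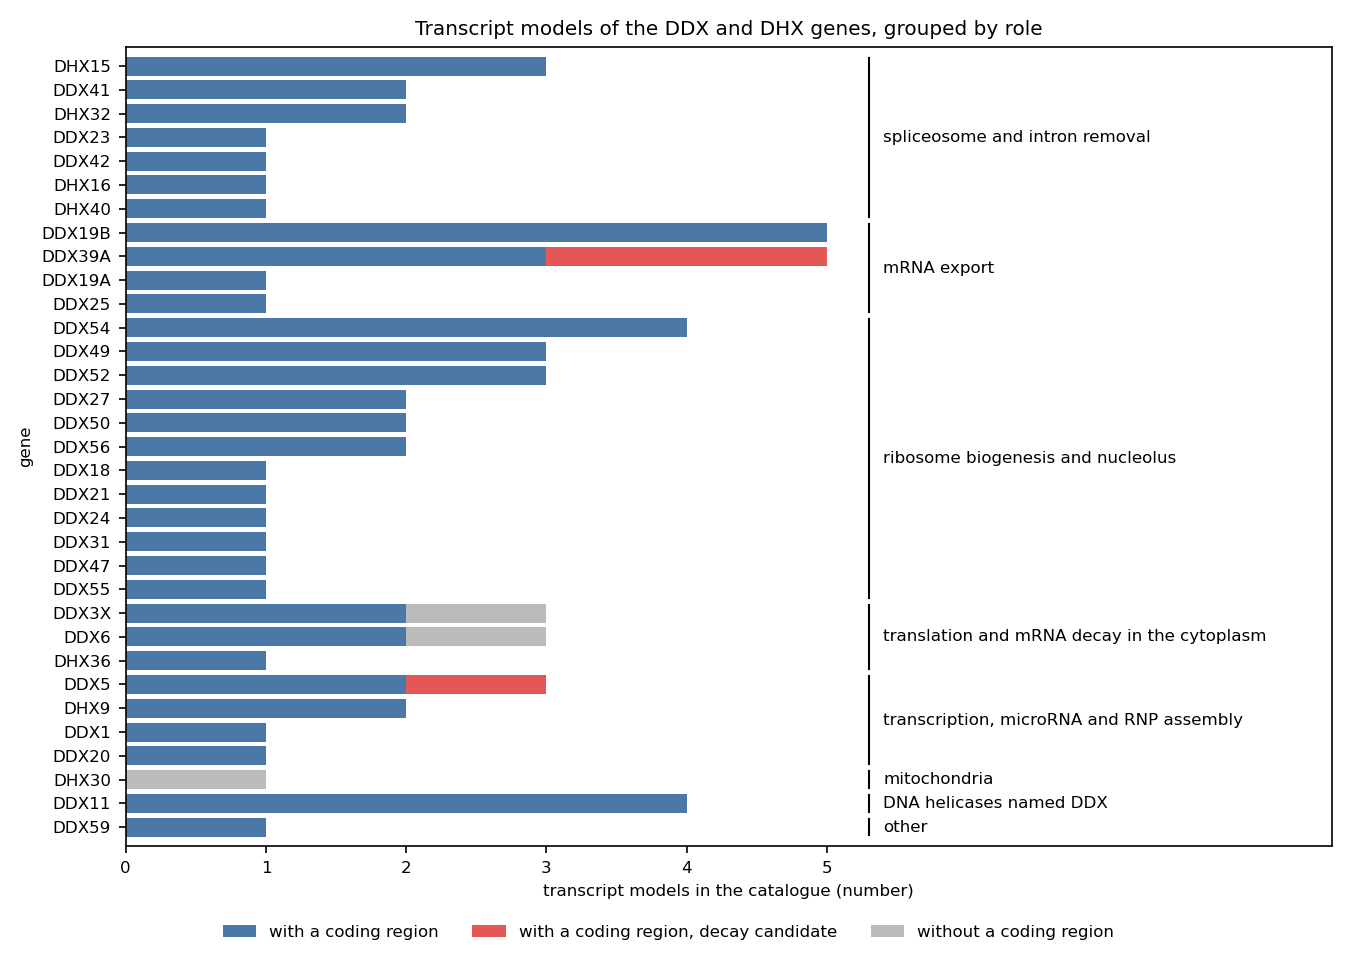
Number of transcript models (x axis) of each of the 33 DDX and DHX genes (y axis), grouped by role; colours separate models with a coding region, decay candidates and models without a coding region. DDX19B and DDX39A reach 5 models, and the 3 decay candidates lie in DDX39A and DDX5.

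Of 56 family genes in the role lists, 33 had a model and 23 had none. The share of all annotated genes with a model was not counted. The counts by role therefore describe the lists and do not set the family or a role apart. Ribosome assembly factors made up the largest group, with 12 of 16 genes and 22 models. They were DDX18, DDX21, DDX24, DDX27, DDX31, DDX47, DDX49, DDX50, DDX52, DDX54, DDX55 and DDX56, while DDX10, DDX51, DHX33 and DHX37 had no model. Among spliceosome and intron removal genes 7 of 11 had a model. DHX16, which activates the spliceosome, DDX23, a component of the U5 particle, and DDX42, which was purified with a U2 particle subcomplex, had 1 each. DHX15, which takes spent spliceosomes apart, had 3, and DDX41 had 2. The list also held DHX32, with 2 models, and DHX40, with 1. DDX46, DHX8, DHX35 and DHX38 had none. Of the export helicases DDX19A, DDX19B, DDX39A and DDX25 had a model and DDX39B had none. DDX25 is known as a testis helicase from work in mouse. Among cytoplasmic translation and decay genes DDX3X, DDX6 and DHX36 had a model, and DHX29, DHX34, DHX57 and DDX3Y had none.

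Of the genes for transcription, microRNA processing and particle assembly, DDX1, DDX5, DDX20 and DHX9 had a model and DDX17 had none. DHX30, a mitochondrial ribosome assembly gene, had 1 model without a coding region, and DDX28 had none. None of the 4 antiviral genes RIGI, DHX58, DDX60 and DDX60L and none of the 3 germ-cell genes DDX4, DDX43 and DDX53 had a model. DDX28 and DDX53 are intronless genes, and each model of the catalogue had at least 2 exons, so these could not be represented. The catalogue also held no model longer than 5877 nt. DDX11, a DNA helicase of sister chromatid cohesion, had 4 models. Its near-identical copy DDX12P had none, and reads of the pair may be assigned to either. DDX59 had 1.

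More genes of this family had differing deposited coding starts than differing deposited coding ends. Of the 16 DDX and DHX genes with at least 2 coding models, 11 had at least 2 start positions (68.8%, Wilson interval 44.4 to 85.8%), beside 44.7% of all such genes. At least 2 end positions were found in 6 of the 16 (37.5%, 18.5 to 61.4%), beside 41.6% of all such genes. The intervals for starts and ends overlap, and that for starts includes the 44.7% of all such genes. In 6 genes a model with another start still held the start codon of the longest coding region. Whether start or end differs there depends on which start the coding-region caller took, which was not tested. In DDX11 and DDX52 the further starts and ends came from models whose coding region ran to the model's end. In DDX54 the further start came from models with 6 codons. The counts without such models were not made. A single coding region was found in 1 of the 16, DHX32, beside 15.7% of all such genes. Each other coding model was set against the longest coding region of its gene. Of these 30 models, 14 (46.7%) in 9 genes shared the end and had another start, against 2596 of 8659 models (30%) over all genes. The start was shared and the end differed in 8 models (26.7%), against 25.3% over all genes. In 18 of the 30 (60%) the region was shorter than the longest and every codon of it was also a codon of the longest in the same frame, beside 32.3% of all 8659 models. These were shortened forms with no added codon. They included models 2 and 3 of DDX11 and of DDX52, with a coding region running to the model's end. Models 3 and 4 of DDX54, with 6 codons, were also among them.

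**Figure D2:**
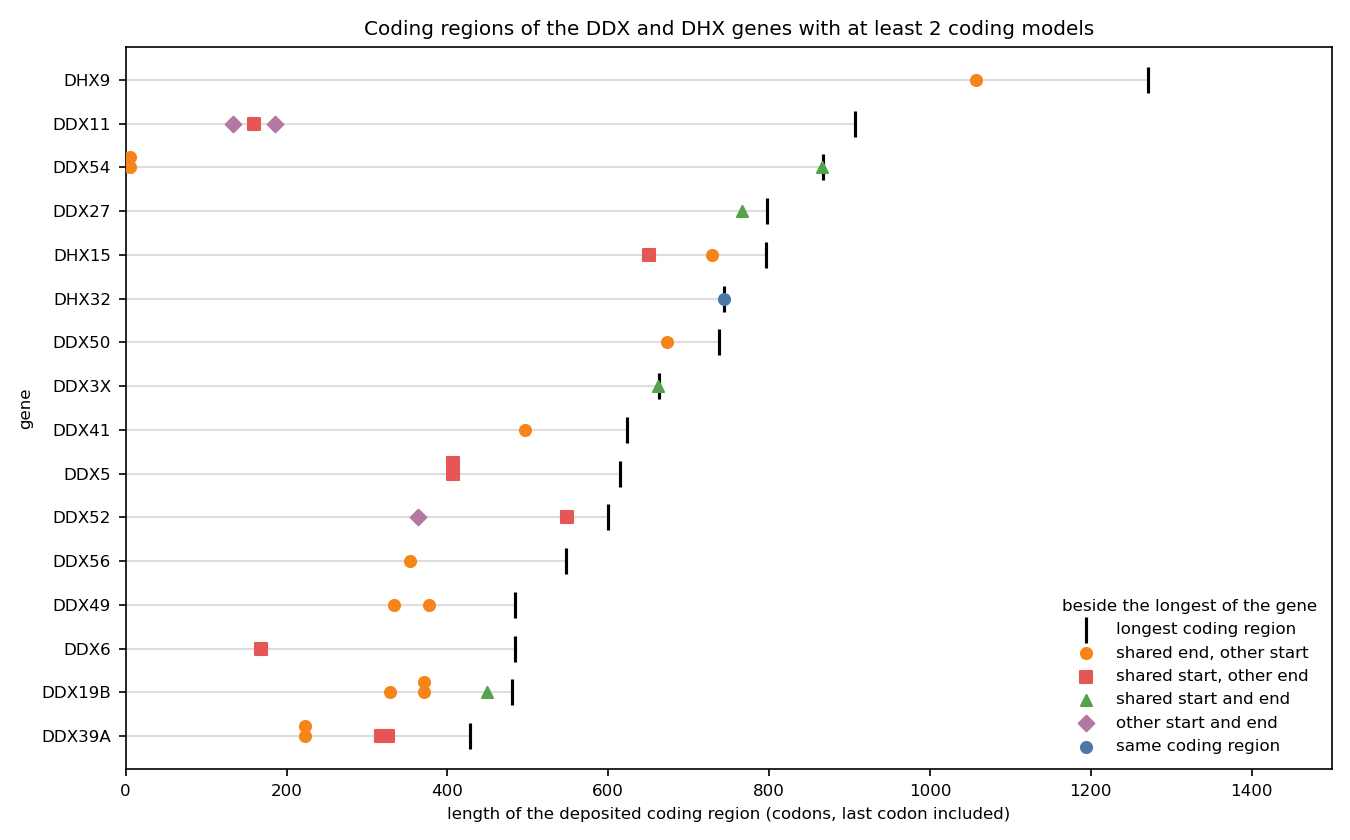
Length of each coding region in codons (x axis) for the 16 DDX and DHX genes with at least 2 coding models (y axis); the black tick is the longest of the gene, and colours show whether start or end is shared with it. Most coloured points with another start (orange) lie between 223 and 1057 codons, and those of DDX54 lie at 6 codons.

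In 10 of these 14 shortened models the start codon of the longest coding region was still inside an exon, against 1560 of 2596 (60.1%) over all genes. The deposited coding region nevertheless began further downstream. In all 10 the distance between the upstream start and the deposited start was not a multiple of 3, so the upstream start was in another reading frame there. The same held for 84.2% of the 1560 models over all genes. A caller that begins at the earliest start in frame would have used an upstream start in the same frame, unless a stop lay between. The frame count may thus follow from how coding regions were called, which was not tested, and nothing is concluded from it. The 10 models belong to DDX19B, DDX39A, DDX49, DDX50, DDX56 and DHX9. Which start ribosomes use in these mRNAs was not measured, and the coding regions are the authors' own. In the other 4 models, of DDX41, DDX54 and DHX15, the upstream start codon was not in the model.

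DDX19B encodes a helicase at the cytoplasmic face of the nuclear pore that releases export factors from mRNA. Its 5 models lay on chromosome 16 from 70299194 to 70333827, plus strand, and are numbered, as for other genes, in the order of the deposited identifiers. They differed by 3 cassette exons, which are internal exons skipped in another model. These had 49 nt (70312609 to 70312657), 54 nt (70314902 to 70314955) and 93 nt (70317496 to 70317588). Model 3 held all of them and had 480 codons. Model 1 lacked the 93-nt exon and kept start, end and frame, with 449 codons. Model 5 lacked the 49-nt exon, model 4 lacked the 49-nt and 54-nt exons, and both had a deposited coding region of 371 codons. Model 2 lacked all 3 and had 329 codons. The 4 models with fewer than 480 codons kept between 68.5% and 93.3% of the codons of model 3. The 54-nt and 93-nt exons were each present in 3 models and skipped in 2. Its paralogue DDX19A, downstream on the same strand, had 1 model of 12 exons and 479 codons. The paralogues are closely related in sequence, and reads of one may be assigned to the other.

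DDX39A encodes an ATPase of the export machinery that loads adaptor proteins onto mRNA, and it varied at both ends of its coding region. The 5 models lay on chromosome 19 from 14408820 to 14419341, minus strand. Model 3 had 11 exons and 428 codons. Models 1 and 2 held an extra exon of 58 nt (14410548 to 14410605) and 185 nt (14410421 to 14410605), which share a 3' splice site. In both the deposited coding region began downstream and had 223 codons, 52.1% of model 3. Models 4 and 5 kept the start and retained an intron, of 342 nt (14409874 to 14410215) in model 4 and 88 nt (14409448 to 14409535) in model 5. Their coding regions had 317 and 326 codons, of which 73 and 2 were not codons of model 3.

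An mRNA whose coding region stops over 50 nt before its last exon junction may be a target of nonsense-mediated decay, and such models were counted as decay candidates, a rule on the model and not a measurement. Models 4 and 5 of DDX39A met it, ending 658 nt and 377 nt before the last junction. The third candidate was in DDX5. Candidates were thus found in 2 of 32 coding DDX and DHX genes (6.25%, Wilson interval 1.73 to 20.1%), beside 5.01% of all coding genes. These counts rest on the deposited coding ends. In the 10 models with an upstream start in another frame, where a reading from that start would end was not tested.

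DDX5 encodes an abundant nuclear helicase that works in transcription, splicing and microRNA processing. Its 3 models lay on chromosome 17 from 64499621 to 64506289, minus strand. All 3 began and ended at the same bases and differed only in introns near the 3' end. Model 1, with 13 exons, had 615 codons. Models 2 and 3 retained an intron of 1236 nt (64500774 to 64502009) and had 407 codons, 405 of them shared with model 1. The coding end lay inside that intron. Model 2 spliced the intron that follows, of 222 nt, and its coding region ended 1456 nt before this last junction. Model 3 retained the 222-nt intron too (64500327 to 64500548), so no junction followed its coding end and it was not a candidate. The 3' untranslated regions were 2162 nt in model 2 and 2384 nt in model 3. Retained introns were found in 2 of the 16 genes with at least 2 models, DDX39A and DDX5 (12.5%), beside 17.3% of all such genes.

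**Figure D3:**
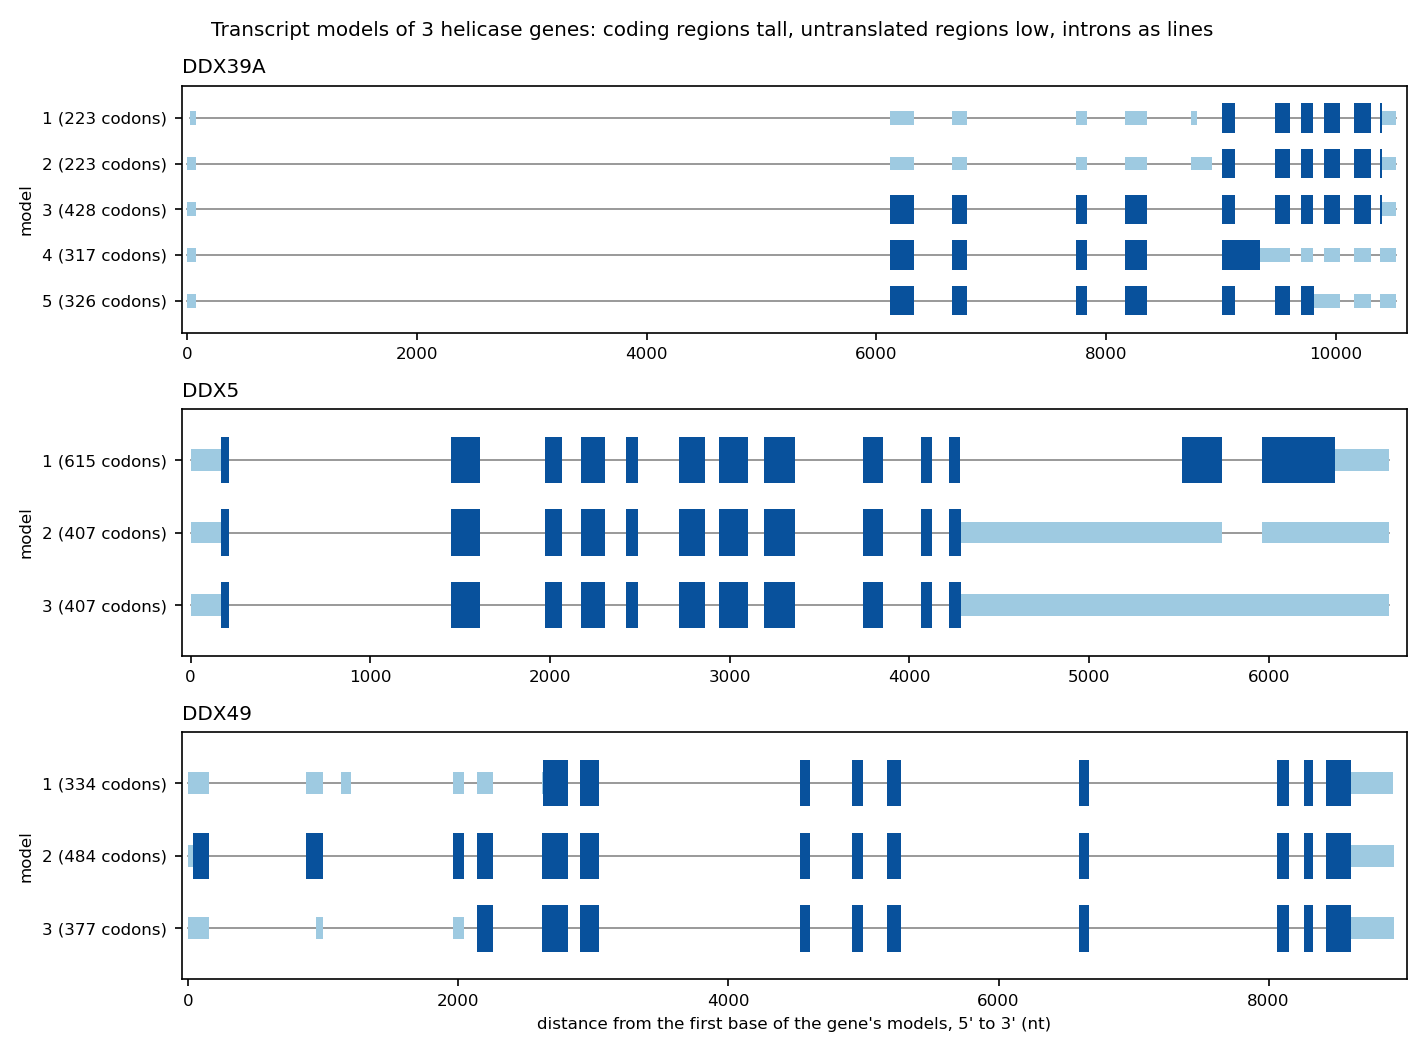
Models of DDX39A, DDX5 and DDX49, drawn to scale by distance from the first base in nt (x axis), 1 row per model with its codon count (y axis); tall boxes are coding, low boxes untranslated and lines introns. The coding region begins late in models 1 and 2 of DDX39A and in models 1 and 3 of DDX49, and ends early in models 4 and 5 of DDX39A and models 2 and 3 of DDX5.

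Ribosome assembly genes DDX49, DDX50 and DDX56 varied in the early part of the coding region. DDX49 (chromosome 19, 18919705 to 18928630, plus strand) had 484 codons in model 2. Model 1 held an extra exon of 76 nt (18920834 to 18920909) and had 334 codons. Model 3 used a 3' splice site 71 nt further downstream (18920580 to 18920650 spliced out) and had 377 codons. DDX50, a nucleolar helicase on chromosome 10, had an extra exon of 112 nt (68906226 to 68906337) in model 2, which had 673 codons against 738 codons in model 1. DDX56 (chromosome 7) had 353 codons in model 1, against 548 codons in model 2. The difference between the 2 was a 5' splice site that added 11 nt (44572563 to 44572573). In DHX9, a nuclear helicase of transcription and RNA structure on chromosome 1, an extra exon of 137 nt (182855577 to 182855713) went with 1057 codons in model 1, against 1271 codons in model 2. The leader before the deposited start was 942 nt in that model, the longest of the family, and 132 nt in model 2.

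Cassette exons were found in 8 of the 16 genes with at least 2 models (50%, Wilson interval 28 to 72.0%), beside 49.3% of all such genes. There were 11 such exons of 49 to 185 nt, and 10 lay between the start and end of the longest coding region of their gene, beside 73.3% of the 3571 cassette exons of all genes. Of those 10, 7 had a length not divisible by 3 (70%), beside 57.5% of such exons over all genes. In DDX19B, DDX27 and DDX52, 5 of the 11 (45.5%) were wholly coding in a model that held them, beside 59.7% over all genes. DDX27, a ribosome assembly gene on chromosome 20, skipped an exon of 93 nt (49231023 to 49231115) in model 2, with 766 codons against 797 codons in model 1. DDX52 (chromosome 17) skipped an exon of 131 nt (37633288 to 37633418) in model 3. The remaining cassette exon, of 111 nt in DDX11, lay upstream of the coding start in model 3, the 1 model that held it.

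Differences of 3 nt at a 3' splice site were found in DDX3X and DDX54. In DDX3X, a translation helicase on the X chromosome, 3 nt (41347312 to 41347314) separated model 3 with 663 codons from model 2 with 662 codons. In DDX54, a nucleolar gene on chromosome 12, the 3 nt (113159110 to 113159112) were included in models 1 and 4 and left out in models 2 and 3. Models 1 and 2 of DDX54 had 867 and 866 codons. Models 3 and 4 were 2-exon models that began at 113161447, 24031 nt downstream of the RefSeq start, with a deposited coding region of 6 codons. Alternative 3' splice sites were found in 4 of the 16 genes (25%), beside 23.3% of all such genes, and alternative 5' splice sites in 2, DDX39A and DDX56 (12.5%), beside 25.2%.

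Alternative last exons were found in 5 of the 16 genes (31.2%, Wilson interval 14.2 to 55.6%), beside 26.9% of all such genes, and each gave a short form of the mRNA. DDX6, which represses and decays mRNA in the cytoplasm, had 484 codons over 14 exons in model 1. Model 2 ended after 5 exons with 168 codons, and model 3 ended after 2 exons without a coding region. The coding region of model 1 ended 7 nt before its last junction. DHX15 (chromosome 4) had 651 codons over 10 exons in model 3, against 796 codons over 14 exons in model 2; 56 of the 651 were not codons of model 2. Model 1 of DDX3X ended after 3 exons without a coding region, whereas its 17-exon models had 3' untranslated regions of 2548 and 2550 nt. Models without a coding region were found in 3 of the 33 genes, DDX3X, DDX6 and DHX30 (9.09%), beside 17.6% of all genes. These are unlike sets: all 33 members were listed as protein-coding, whereas 8579 of the 9460 genes had a coding model. The share over coding genes alone was not counted.

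DDX11 and DDX52 also had short forms, but there the coding region ran to the end of the model. In DDX11, models 2, 3 and 4 ended at 31084669, after 4, 5 and 6 exons, with 134, 160 and 186 codons, against 907 codons over 27 exons in model 1. Their coding regions ended at the last base, with 0 nt of 3' untranslated region. In DDX52, models 2 and 3 had 2 nt there, with 549 and 363 codons against 600 codons in model 1. Whether these models were cut short was not tested.

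Alternative first exons were found in DDX11, DDX41, DDX54, DHX15 and DHX32 (5 of 16, 31.2%, Wilson interval 14.2 to 55.6%), beside 18.0% of all genes with at least 2 models. In DDX54 the downstream first exon was that of the 2-exon models 3 and 4, with 6 codons. In DHX32 the first exons lay at 125896218 to 125896486 and 125880543 to 125881295 on chromosome 10, and both models had the same 744 codons. The 3' untranslated regions of these models were 348 and 174 nt. Behind a shared coding end, 3' untranslated regions differed by at least 100 nt in 2 of the 16 genes with at least 2 coding models, DHX32 and DDX5 (12.5%), beside 15.3% of all such genes. In DHX15 the first exon of model 1 left out the start of model 2, and model 1 had 729 codons.

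The first exons of DDX41 were nearly adjacent. DDX41 encodes a helicase of splicing and DNA sensing on chromosome 5, minus strand. Model 2 began with an exon of 32 nt (177516919 to 177516950) that held 5 nt of leader and the start codon, and had 623 codons. Model 1 began 34 nt further downstream, at the third base after the end of that exon, and its deposited coding region had 497 codons behind a leader of 432 nt. The sequence is shown because it holds both first bases; it runs over chr5:177516912-177516980 (GRCh38.p14, minus strand, from RefSeq's window). Capitals mark the first exon of model 2, and model 1 begins at the third lower-case base after them:
DDX41: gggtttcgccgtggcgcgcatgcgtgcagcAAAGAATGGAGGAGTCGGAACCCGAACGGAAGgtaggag
The start codon of model 2 is the ATG at bases 6 to 8 of the capitals, and the intron opens with gt.

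DDX41 was 1 of 6 members with very short leaders. A leader of at most 30 nt was found in 7 of 62 coding models of DDX and DHX genes (11.3%), against 12.2% of all 17247 coding models. They were in DDX41 (5 nt), DDX47 (7 nt), DDX25 (10 nt), DDX52 (15 and 20 nt), DDX20 (22 nt) and DDX1 (24 nt). The DDX25 model began 1180 nt downstream of the RefSeq start, and DDX52 had no RefSeq window. The median leader was 130.5 nt in the family and 147 nt over all coding models. DDX47 is a ribosome assembly gene, and DDX20 encodes Gemin3, a subunit of the complex that builds splicing particles. For these, 30 bases before the first base of the model are given in lower case and the leader with the start codon in capitals, from RefSeq's windows (GRCh38.p14, plus strand), chr12:12813331-12813370 and chr1:111755873-111755927:
DDX47: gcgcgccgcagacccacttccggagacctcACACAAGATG
DDX20: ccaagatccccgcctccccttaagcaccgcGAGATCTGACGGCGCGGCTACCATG
Both leaders run to the ATG without a break, and a leader this short is complete only if the first base of the model is the first base of the mRNA, which was not tested.

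RefSeq windows were given for 30 of the 33 genes, all but DDX18, DDX49 and DDX52. In 21 of these 30 (70.0%) a model began within 50 nt of the RefSeq start, against 75.1% of 7389 genes of the catalogue. Models of DDX31, DHX36, DDX42 and DDX55 began 57841, 41222, 37917 and 16681 nt downstream. These 4 genes had 2, 6, 5 and 3 exons and 58, 217, 408 and 142 codons, so only a 3' part of each gene was represented. The other models that began more than 1000 nt downstream were that of DDX25, models 3 and 4 of DDX54, and the 5 models of DDX19B, at 4417 to 4419 nt. The motif GGGCGG, on either strand, was present in 16 of the 30 windows (53.3%) and in 44.6% of all 27305 windows. CCAAT, on either strand, was present in 12 (40.0%) and in 35.7% of all windows. TATAAA was present in 1, that of DHX32 (3.33%), and in 12.0% of all windows. The 27305 windows also cover genes without a model in the catalogue, so they are not a like background. Some windows of the family lie far from the first bases of the gene's models, as given above. A match describes letters and not a bound site.

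**Figure D4:**
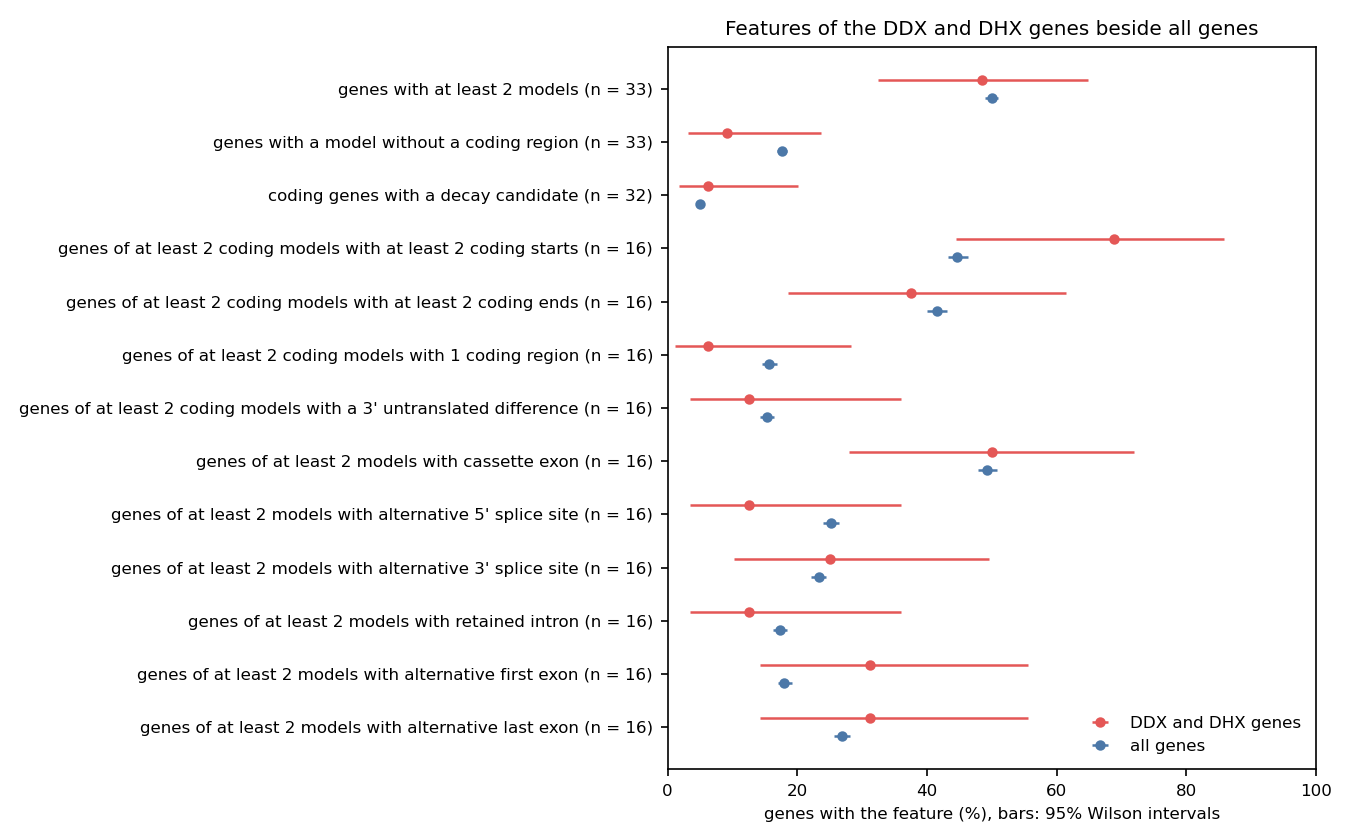
Share of genes with each feature in percent (x axis) for DDX and DHX genes (red) and all genes (blue, members included), with 95% Wilson intervals as bars and the number of DDX and DHX genes in brackets. The share with at least 2 deposited coding starts, 68.8% in the family, lies farthest from that of all genes, 44.7%.

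In 7 of the 33 DDX and DHX genes (21.2%) a gene on the other strand had its first base within 1000 nt of theirs, beside 17.4% of all genes. The smallest distance over models was 42 nt for DDX11 and DDX11-AS1, 77 nt for DDX19A and DDX19A-DT and 73 nt for DHX32 and FANK1. It was 85 nt for DDX54 and RITA1, 108 nt for DDX24 and IFI27L1 and 318 nt for DDX49 and COPE. The pairing of DHX32 with FANK1 held for model 1 only, which began at -15194 nt from the RefSeq start, upstream of it. Exons overlapped those of an opposite-strand gene in 4 of the 33 (12.1%), beside 5.64% of all genes. DHX9 and DHX9-AS1 overlapped at their starts, with 141 nt of exon in common. DDX19A-DT ran back to 70333824 and met the last 4 nt of model 4 of DDX19B, so its span covered the stretch between the paralogues. Models 1, 2 and 5 of DDX19B ended before 70333824 and did not overlap it. Exons of DHX32 shared 399 nt with BCCIP and those of DHX16 shared 41 nt with C6orf136, again on opposite strands. The libraries were strand-specific, per the labels' protocols.

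RNA helicases under other names and partners of the family were found as follows. As for the roles, no share over all annotated genes was counted beside these. Of 22 helicase genes with other names 11 had a model, with a median of 2. EIF4A2, a translation initiation helicase, had 5 models and 1 decay candidate, its paralogue EIF4A1 had 2 and EIF4A3, of the exon junction complex, had 1. UPF1, SNRNP200 and DICER1 were among those without a model. Of 45 partner genes 36 had a model, with a median of 2. At least 2 models were found for 25 of these 36, beside 50% of all genes of the catalogue. GEMIN2 and GEMIN7, of the complex that contains DDX20, had 5 models each. THOC1, THOC5 and THOC7, of the export complex that works with DDX39A, had 4 each, and ZGPAT, a G-patch protein gene, had 5.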

How the data were processed

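The deposited file is 1 table of transcript models, with the first and last base of every transcript, exon and coding segment in nt and no other value. Each line names PacBio as source, per the file itself. Per the labels' protocols, long reads came from R2C2 libraries of polyadenylated RNA, with 15 PCR cycles (17 for monosomes). STAR 2.7.8a and Salmon 1.9.0 appear, with no role, in the submitters' processing notes. The model builder, the coding-region caller and the annotation are not given in the sources. The table holds no counts, so nothing was fitted or tested between NPC and ESC.

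Members and lists were chosen with earlier results of these data known. Introns were taken as gaps between exons, and models were compared where they shared gene, chromosome and strand. An internal exon was called a cassette exon if a second model joined the splice sites on either side of it. An intron was called retained if a second model had an exon covering it. Alternative 5' or 3' splice sites belonged to introns with 1 end in common, and alternative first or last exons did not overlap. Codons were compared by the genome positions of their 3 bases. The event finder was tested on constructed models. Named in full were members with at least 4 models, a decay candidate, a coding cassette exon or a 3' untranslated difference of at least 100 nt; values of other members were picked later, with the results in view. Alternatives changed which models count, the support for an exon and the distances in nt. The planned comparisons with RefSeq protein lengths and helicase motifs were not run. Python 3.11.15, pandas 2.3.3 and scipy 1.17.1 were used.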

Additional observations from a re-analysis of the deposited data

How the results depend on the processing

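Of 11 alternatives over 4 results, 9 kept the count within 1.5 times. Numbers of coding starts and ends were not among these 4 results. Requiring inclusion and skipping in at least 2 models each left 1 gene with a cassette exon, DDX19B, in place of 8; genes with 2 or 3 models cannot meet this requirement. Requiring a difference of at least 200 nt left 1 gene with a 3' untranslated difference, DDX5, in place of 2. The number of genes with at least 2 models was 14 without coding regions within 2 nt of a model's end and 15 by distinct coding regions, against 16. Counting any distance to the last junction added model 1 of DDX6 to the 3 decay candidates. The alternatives on RefSeq protein length and helicase motifs were not run, since no protein sequences were used here. No paired analysis was possible because the table has no values per library. Long or rare mRNAs may be missing or partial, and depth is unknown.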
